A study of Pan paniscus with 11 samples.

Results

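Genes of the cytosolic ribosomal proteins were followed across 11 cultures of bonobo (Pan paniscus) fibroblasts, each profiled on 1 Affymetrix human array. Members were the probe sets whose annotation gave a single symbol starting with RPL or RPS and a digit, or RPLP0, RPLP1, RPLP2 or RPSA. S6 kinases, RPS4X, RPS4Y1, RPS4Y2, pseudogenes and antisense genes were left out. This gave 54 probe sets for 48 genes, 29 of the large subunit and 19 of the small subunit, out of 8226 genes named singly on the array. A further 23 probe sets joined a ribosomal protein gene with another gene and were not members.

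The lines came from 10 normal bonobos, and the cultures harvested under the study's standard conditions are called the standard lines. The females were aged 9 years (line 1), 2 (line 2), 4 (line 3), 20 (line 4) and 20 (line 5). The males were aged 4 years (line 1), 2 (line 2), 12 (line 3), 17 (line 4) and 19 (line 5). Cells of male line 1 were also cultured a second time and taken at 50% confluence. No group carried a genetic change or a drug treatment, as far as the labels say. Each line was grown and measured once, so the spread between lines holds biological and technical variation together. Neither body site nor passage number is given in the sources used here.

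The cytosolic ribosome makes all proteins encoded in the nucleus. Its large subunit joins amino acids and threads the new chain through an exit tunnel, and its small subunit reads the messenger RNA. Most of the proteins are needed in equal numbers. Their messenger RNAs begin with a stretch of pyrimidines, the TOP motif, through which mTOR and LARP1 adjust their translation and stability with growth.

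Values are deposited intensities on a linear scale with a floor of 100, and differences are in log2 of the floored intensity. All 15 fibroblast marker genes lay above the floor in all 11 cultures (VIM, COL1A1 and COL1A2 among them), and the median intensity of endothelial, melanocyte, blood cell, and keratinocyte and epithelial markers was 100, the floor. Of 14 keratinocyte and epithelial markers, 3 were above the floor in all cultures, as were 1 of 10 endothelial and 2 of 10 blood cell markers. Summed intensity per culture ran from 2995 to 5632 for the keratinocyte and epithelial list and from 2437 to 4616 for the endothelial list. It ran from 116119 to 178104 for the fibroblast markers. Trimmed array means ran from 404.9 to 417.3. Signal of 18S ribosomal RNA on its 3 control probe sets was 100 in all but 3 cultures: at 50% confluence it was 1508 to 2611, in male line 4 it was 146 to 313, and in male line 2 it reached 171. The 3' to 5' ratio of the ACTB control, a sign of RNA quality, was highest in male line 4 (2.27) and lowest in the 50% confluence culture (0.669), and that of the GAPDH control ran from 0.691 in male line 2 to 1.68 in male line 4.

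Of the 48 genes, 45 were above the floor in all 11 cultures, 26 of the large and 19 of the small subunit, with intensities from 2047 to 34003. Where a gene had 2 probe sets, the one with the higher mean stood for it. The other 3 genes were RPL39, RPL3L and RPL39L. RPL39, an X-linked protein of the exit tunnel, read 144 in male line 4 and was at the floor elsewhere. RPL3L, a muscle paralog of RPL3, was at the floor in every culture. Human probes can bind bonobo transcripts less well, so a floor reading does not show that RPL39 or RPL3L was absent. RPL39L, a paralog of RPL39 known from testis, was above the floor in 6 of the 10 standard lines. It read 100, 100, 135, 100 and 159 in female lines 1 to 5 and 106, 100, 126, 254 and 324 in male lines 1 to 5.

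The ribosomal protein genes moved up and down together from line to line. For each line the deviation of every gene from its own mean over the 10 standard lines was taken, and the median deviation of the 45 genes is called the shift. The shift was -0.48 log2 in male line 3 and -0.33 in female line 4, and 0.38 in male line 5. Female lines 2 and 5 stood at 0.22 each and male line 4 at 0.19, whereas female lines 1 and 3 and male lines 1 and 2 lay between -0.13 and 0.00. In male line 3, 44 of 45 genes were below their own mean, where 46.8% of all 4540 probe sets above the floor in all arrays were below theirs. In female line 4 it was 45 of 45, against 49.3% of all. In male line 5, 41 of 45 genes were above their mean and 4 below it, against 50.3% of all below. The GAPDH 3' to 5' ratio was low in female line 4 (0.710) and male line 3 (0.749), and it was 1.17 in female line 2, 1.33 in male line 5 and 1.68 in male line 4, lines of positive shift. It was also low in male line 2 (0.691), whose shift was 0.00, while female line 5, at 0.951, had a shift of 0.22. Female line 3 (1.185) and male line 1 (1.174) had ratios at least as high as female line 2, with shifts of -0.13 and -0.06. Female line 1, at 0.867, had a shift of -0.03. The ACTB ratio was 1.04 in female line 4, 1.17 in male line 3 and 1.26 in male line 5. In female lines 1, 2, 3 and 5 it was 1.06, 1.19, 1.22 and 1.44, and in male lines 1, 2 and 4 it was 1.42, 0.853 and 2.27. The part of RNA quality in the shift was not tested. RNA was taken from whole cultures, so fewer cells of one kind and less RNA per cell cannot be told apart.

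**Figure D1:**
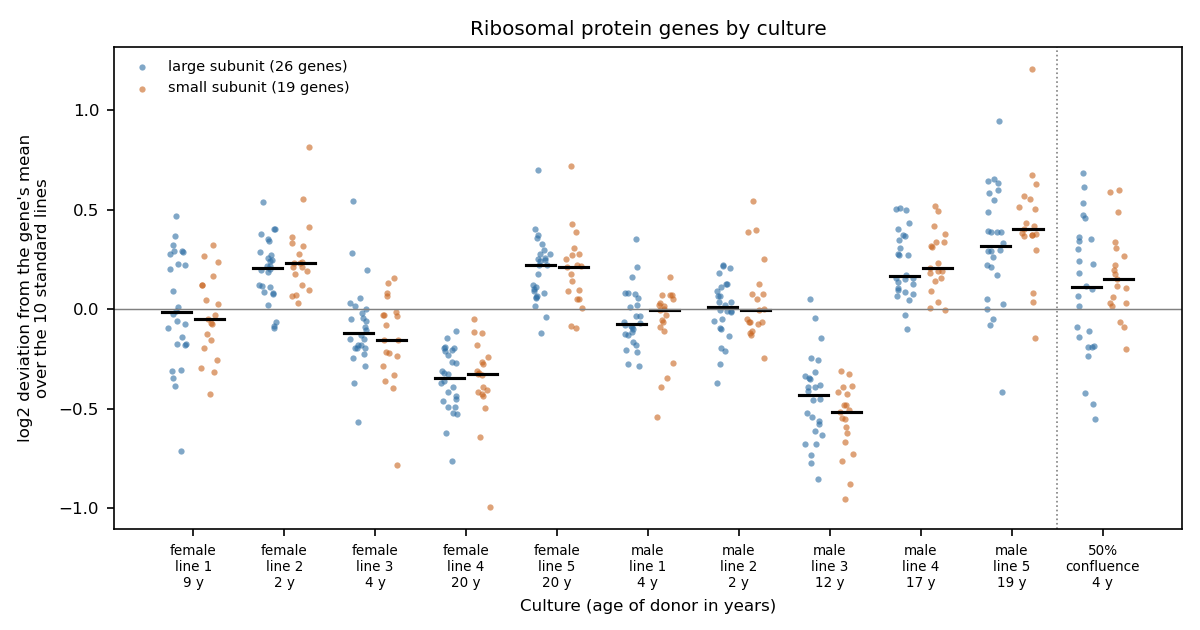
Each point is the log2 deviation of 1 ribosomal protein gene (vertical axis) from its mean over the 10 standard lines, by culture (horizontal axis, with donor age), in blue for 26 large subunit genes and orange for 19 small subunit genes, and black bars are medians. Both subunits lie low in male line 3 and female line 4 and high in male line 5.

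Male line 3 had the lowest intensity of the 10 lines for 31 of 45 genes, against 8.77% of all probe sets above the floor in all arrays. Female line 4 was lowest for 11 more (9.96% of all), and female line 1 for RPL6 and RPLP1 (17.4% of all). Male line 5 had the highest intensity for 27 of 45 genes, against 12.1% of all. Without male line 4, the standard line of highest 18S control signal, male line 3 was lowest for 31 genes and male line 5 highest for 29. Scaling bore on the size of the pattern and on which line was highest. Of the 100 probe sets of highest mean, 27 were members. Quantile normalization, which gives every array the same distribution, reduced the shift of male line 3 to -0.27 and that of male line 5 to 0.09. Male line 4 (0.20) and female line 2 (0.18) then lay above male line 5, and female line 4 stood at -0.24. The counts fell to 18 lowest in male line 3 and 7 highest in male line 5. Median centring of the arrays gave 34 and 29, and without female line 4 male line 3 was lowest for 38.

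Other bright probe sets moved less between these lines, which were picked for their shifts, so no test was made. Over 667 other probe sets in the top 10% by mean intensity, the median deviation was -0.02 in male line 3, -0.05 in female line 4 and 0.15 in male line 5. That set was not matched in brightness to the members, which made up 27 of the 100 probe sets of highest mean. Over all 7333 tested probe sets it was 0.01, 0.01 and -0.05. The 22 probe sets that joined a ribosomal protein gene with another gene and were above the floor in all arrays had medians of -0.39 in male line 3, -0.28 in female line 4, 0.36 in male line 4 and 0.18 in male line 5. FAU, which encodes a small subunit protein fused to a ubiquitin-like protein and falls outside the rule, was lowest in male line 3 (4381) and highest in male line 5 (13303), and read 6175 to 8838 in the other lines.

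RPL32, a large subunit protein gene picked after its values were seen, followed the shift most closely. Its intensity was 13723, 18474, 15293, 11788 and 17633 in female lines 1 to 5 and 14311, 15031, 10398, 16526 and 21263 in male lines 1 to 5. The low values were those of male line 3 and female line 4, and the high value that of male line 5. Once the shift of each line was subtracted, its SD over lines was 0.08, against 0.31 before.

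**Figure D2:**
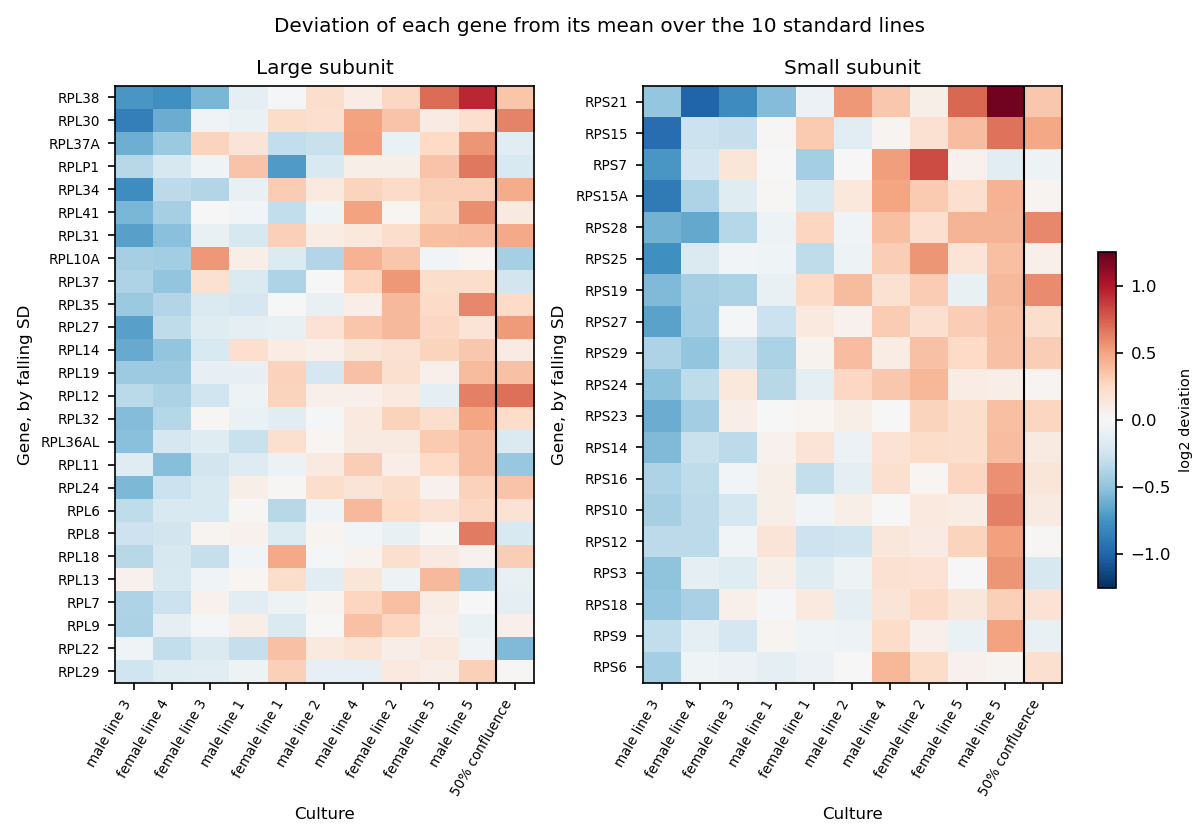
Colour gives the log2 deviation of each of 45 genes (rows, by falling SD within each subunit) from its mean over the 10 standard lines, with standard lines (columns) ordered by median deviation and the 50% confluence culture last. Columns are blue at the left (male line 3, shift -0.48) and red at the right (male line 5, shift 0.38). RPL13, RPL22 (brighter probe set) and RPS7 are among the rows that break the order.

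The shift had much the same size in both subunits. The median deviation of large subunit genes was -0.43 in male line 3, -0.34 in female line 4 and 0.32 in male line 5, and that of small subunit genes was -0.52, -0.33 and 0.40. The difference, large minus small, ran from -0.09 (male line 5) to 0.09 (male line 3) with an SD of 0.05 over the 10 lines, whereas the shift of all 45 genes had an SD of 0.27. Quantile normalization narrowed the range of the difference from 0.17 to 0.08. No order between the subunits is drawn from this, and the difference was not tested.

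In the 3 lines picked for their shift, male line 3, female line 4 and male line 5, the genes were also grouped by region of the ribosome, as a description. Among 10 genes of the small subunit head, the part that moves as the messenger RNA is read, all were below their mean in male line 3 and in female line 4 and above it in male line 5 (medians -0.49, -0.33 and 0.47). Among 9 genes of the small subunit body and platform, all were below in male line 3 and female line 4 and 8 above in male line 5 (-0.55, -0.32 and 0.38). The 4 measured exit tunnel genes RPL19, RPL22, RPL31 and RPL35 had medians of -0.45, -0.41 and 0.39, with 2 of the 4 lowest in male line 3 and 3 of the 4 above their mean in male line 5. A list of some of the genes mutated in Diamond-Blackfan anaemia, a failure of red cell production, held 9 measured members, and their medians were -0.55, -0.42 and 0.37.

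The stalk of the large subunit recruits the elongation factors. RPL12, which sits at its base, read 11114, 9970, 7742, 7001 and 8458 in female lines 1 to 5 and 8757, 9607, 7286, 9606 and 14243 in male lines 1 to 5, highest in male line 5. RPLP1, a stalk protein with an acidic tail, is described with its 2 probe sets later in the text. RPL11, which binds 5S ribosomal RNA and can hold the p53 regulator MDM2, deviated by -0.15 in male line 3 and -0.53 in female line 4: its lowest value was in female line 4 (10531), and male line 3 read 13730, close to male line 1 (13553) and female line 3 (12996). RPL36AL, a paralog of RPL36A, was lowest in male line 3 (2394) and highest in male line 5 (4494), with female line 4 at 2978 and male line 1 at 2839.

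Between the lines of lowest and highest shift as deposited, male lines 3 and 5, chosen for that contrast and measured once each, 43 of 45 genes were higher in male line 5. The median ratio was 1.91-fold, against 0.989 over all probe sets above the floor in all arrays. Of the 45, 34 were over 1.5-fold higher (15.7% of all) and 17 over 2-fold (5.15% of all). These ratios rest on the deposited scaling and were not recomputed under another. Quantile normalization brought the shifts of male lines 3 and 5 to -0.27 and 0.09, and male line 4 (0.20) was then the highest. RPS21 was 3.23-fold higher (6012 against 19413), RPL38 3.20-fold (7621 against 24368) and RPS15, a protein of the small subunit head near the decoding site, 3.10-fold (2654 against 8218). The exceptions were RPL13, at 5458 in male line 3 and 3947 in male line 5, and RPL22, at 2908 and 2901. On its other probe set RPL22 was higher in male line 5, at 1957 in male line 3 and 2560 in male line 5.

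Spread between the lines was modest for most members. Over 45 genes the median SD of log2 values between lines was 0.31, against 0.43 over all tested probe sets and 0.34 over the other probe sets in the top 10% by mean. It was 0.31 in both subunits. After subtraction of the shift of each line the median SD was 0.18, and 42 of 45 genes had a smaller SD than before, a change that the subtraction of their own median favours. The 3 genes whose SD grew were RPL13 (0.23 to 0.36), RPL22 (0.22 to 0.27) and RPL29 (0.188 to 0.190).

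RPS21 varied most among genes above the floor in all arrays (SD 0.71). It encodes a protein of the small subunit. Its intensity was 7983, 8831, 4871, 4210 and 13858 in female lines 1 to 5 and 5775, 12241, 6012, 10603 and 19413 in male lines 1 to 5. Male line 5, female line 5 and male line 2 were the highest 3, and female lines 3 and 4 the lowest. RPL39L came next over all tested members (SD 0.61), with 4 of 10 lines at the floor.

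RPL38, a large subunit protein linked in mice to the translation of Hox messenger RNAs, had an SD of 0.57. It read 12452, 15100, 8527, 7463 and 20527 in female lines 1 to 5 and 11597, 14687, 7621, 13531 and 24368 in male lines 1 to 5. Male line 5 and female line 5 were again the highest, and female line 4 again the lowest. RPS15 (SD 0.45) read 6440, 5879, 4220, 4279 and 6735 in female lines and 5212, 4703, 2654, 5281 and 8218 in male lines.

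RPS7 and RPL30 were the next most variable, with SDs of 0.44 and 0.43. RPS7, a small subunit protein that also binds MDM2, was highest in female line 2 (6350) and male line 4 (5188), lowest in male line 3 (2185) and low in female line 1 (2693). Male line 5, the highest for most members, read 3271. RPL30 ran from 5897 in male line 3 and 6938 in female line 4 to 15112 in male line 4.

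**Figure D3:**
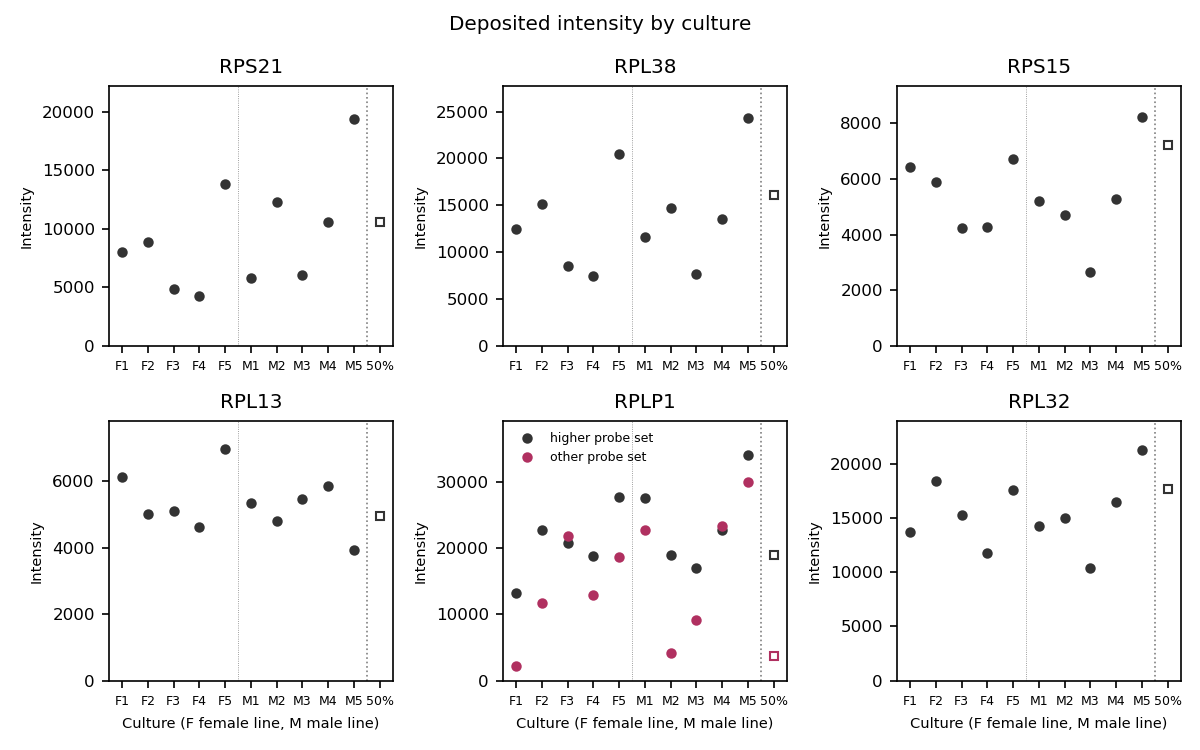
Deposited intensity (vertical axes, from 0) by culture (horizontal axes, F for female and M for male lines, open squares for the 50% confluence culture) for 6 genes. RPS21, RPL38, RPS15 and RPL32 are highest in M5, RPL13 is lowest there, and the other probe set of RPLP1 (red) falls to 2273 in F1 and 4094 in M2.

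The smallest SDs were those of RPL29 (0.19), RPL22 (0.22), RPL9 (0.22), RPS6 (0.22), RPL7 (0.23) and RPL13 (0.23). RPL29, a heparin-binding large subunit protein, read 10259 to 14919 over the 10 lines with a median of 11501. RPS6, the small subunit protein phosphorylated by S6 kinases, read 9367 in male line 3 and 16791 in male line 4. Low spread did not go with the shared order in RPL13, which read 6139, 5035, 5100, 4627 and 6965 in female lines and 5352, 4798, 5458, 5873 and 3947 in male lines. Male line 5 was its lowest line, where 41 of 45 members were above their mean.

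For 6 genes there were 2 probe sets, and these did not always go together. For RPLP1 the brighter probe set read 13194, 22761, 20748, 18751 and 27646 in female lines 1 to 5 and 27586, 18890, 16934, 22742 and 34003 in male lines 1 to 5. The other read 2273, 11706, 21832, 12856 and 18598 in the female and 22629, 4094, 9090, 23238 and 30004 in the male lines (SD 1.20 against 0.39). Female line 1 and male line 2 had 0.172 and 0.217 of the brighter signal on the other probe set, the 50% confluence culture had 0.198, and the remaining lines had 0.514 to 1.05. Those 3 cultures had ACTB 3' to 5' ratios of 1.06, 0.853 and 0.669, where the other lines ran from 1.04 to 2.27, and the part of RNA integrity in this was not tested. The names of these probe sets end in f and r, which Affymetrix used for sets that can match related sequences or were built under relaxed rules, so related copies may contribute. The same holds for the probe sets of RPS12, which end in f and r, and for that of RPS15, which ends in r.

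For RPS21 the second probe set was dim, at 100 to 260 over the 10 lines, and its estimates for sex (-0.19 against 0.43) and age (-0.34 against 0.24) had the opposite sign to those of the brighter one. For RPS14 the second probe set was at the floor in all cultures. For RPS12 and RPL22 the ratio of the probe sets ran from 0.671 to 0.977 and from 0.673 to 1.07 over the lines. The dimmer probe set of RPL22 was lowest in male line 3 (1957), as most members were, whereas the brighter one read 2908 there. The dimmer probe set of RPS15A read 334 to 736, highest in female line 1, whereas the brighter one was highest in male line 4 (19059) and read 11823 in female line 1.

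The first comparison asked whether these genes differed between female and male lines. None did by this test: 0 of 46 tested members passed at an adjusted p of 0.05 (limma with sex and age fitted together over 10 lines, Benjamini-Hochberg over 7333 probe sets), and 0 had an unadjusted p under 0.05, where 0.0273% and 2.33% of all tested probe sets did. Estimates were higher in males for 22 members and lower for 24, with a median of 0.00 log2 and standard errors of 0.19 to 0.36. No member had female and male ranges that failed to overlap, against 0.286% of all. The differences of lowest p were those of RPL39L (0.48), RPS21 (0.43), RPL11 (0.20), RPL8 (0.18) and RPLP1 (0.22) among positive ones, and RPL13 (-0.13), RPL18 (-0.12), RPS7 (-0.15), RPL36AL (-0.11) and RPS15 (-0.14) among negative ones. RPS21 had a mean of 7951 ± 3845 (SD, n = 5) in females and 10809 ± 5578 in males, a difference smaller than the spread within either sex.

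The second comparison asked about donor age. Again 0 of 46 members passed with limma, as did 0% of all tested probe sets, and 1 had an unadjusted p under 0.05 (3.42% of all). That member was RPL39L, with 0.48 ± 0.19 (SE) log2 per 10 years and an adjusted p of 0.999 by limma, which rests on values at or near the floor. Of 46 slopes, 30 were positive and 16 negative, with a median of 0.03, and 49.4% of all tested probe sets had a positive slope. RPS21 (0.24), RPS16 (0.12), RPLP1 (0.14) and RPL41 (0.13) followed among positive slopes, and RPS7 (-0.15), RPL10A (-0.11), RPL30 (-0.10), RPS24 (-0.08) and RPS19 (-0.08) led the negative ones. The lines of animals aged 20 years, female lines 4 and 5, lay on opposite sides of the mean, with shifts of -0.33 and 0.22.

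The age slope was also compared between the sexes, and 0 of 46 members passed (limma, lowest adjusted p 0.973), with 1 unadjusted p under 0.05, against 0.0136% and 4.84% of all probe sets. The estimates nevertheless leaned one way: the male slope was above the female slope for 45 of 46 members, where 50.6% of all tested probe sets had a positive estimate. The estimate was also positive for 20 of 22 probe sets joining a ribosomal protein gene with another gene (median 0.29), 12 of 14 mitochondrial ribosomal proteins (0.28) and 11 of 15 other genes of TOP messenger RNAs (0.20), and for 4 of 23 ribosome assembly factors (-0.23). The members' median was 0.26 log2 per 10 years, with standard errors of 0.27 to 0.52, and RPL13 was the exception (-0.14). RPL39L (0.86), RPL10A (0.59), RPL19 (0.50), RPL37 (0.45) and RPL35 (0.43) had the lowest p. Members share the shift of each line, so 46 estimates are not 46 independent observations. By age, the shifts were 0.22, -0.13, -0.03, -0.33 and 0.22 in females of 2, 4, 9, 20 and 20 years and 0.00, -0.06, -0.48, 0.19 and 0.38 in males of 2, 4, 12, 17 and 19 years. With quantile normalization the median was 0.17 with 42 positive. The median was 0.11 with 36 members positive without male line 5, 0.12 with 37 positive without female line 4, 0.15 without female line 2, 0.41 without male line 2 and 0.45 without female line 5.

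**Figure D4:**
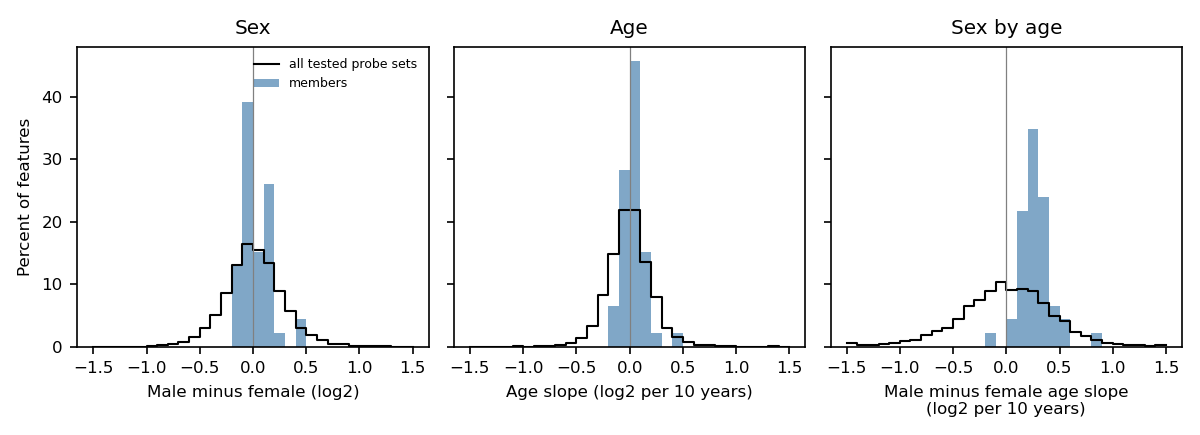
Percent of features (vertical axis) by estimate (horizontal axes, log2, in bins of 0.1, with values beyond 1.5 counted in the end bins) for 46 members (bars) and 7333 tested probe sets (line) in 3 comparisons. Members centre near 0 for sex and age and at 0.26 for the difference of age slopes, with 0 members past the threshold in each.

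Harvest state was compared in male line 1 between the standard culture and the culture at 50% confluence, with 1 culture per state and no test. Most ribosomal protein genes were slightly higher at 50% confluence: 32 of 46 members above the floor in both cultures were higher, against 50.3% of 6147 probe sets, with a median of 0.16 log2 against 0.01 over all. RPL39L alone was over 2-fold higher (106 against 215, the standard culture first), where 4.88% of all were, and it no longer passed with a floor of 200, a pseudocount of 50 or quantile normalization. No member, 0 of 46, was over 2-fold lower (4.75% of all). Over 1.5-fold, 9 were higher (15.3% of all) and 0 lower (14.1% of all). Small subunit genes were higher in 15 of 19 (median 0.21) and large subunit genes above the floor in all arrays in 16 of 26 (median 0.12).

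After RPL39L the largest increases were those of RPS21 (5775 against 10609), RPL12 (8757 against 14775), RPL30 (10069 against 16367) and RPS29 (11936 against 19382), a zinc-binding protein of the small subunit head. The second probe set of RPS21 went the other way (175 against 132). The largest decreases were those of RPLP1 (27586 against 18958, and 22629 against 3756 on the other probe set, 6.03-fold lower), RPL10A (7116 against 5031), RPL11 (13553 against 10919), RPL37A (25333 against 20570) and RPS3 (16344 against 13540), a small subunit protein at the messenger RNA entry. For 9 of 45 genes the 50% confluence culture was beyond all 10 standard lines (19.1% of all): RPL12, RPL30, RPL31, RPS19, RPS28, RPL27, RPL34 and RPL24 above them and RPL22 below. On the second probe set of RPL22 it lay within the range of the lines (2631 against 2704).

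**Figure D5:**
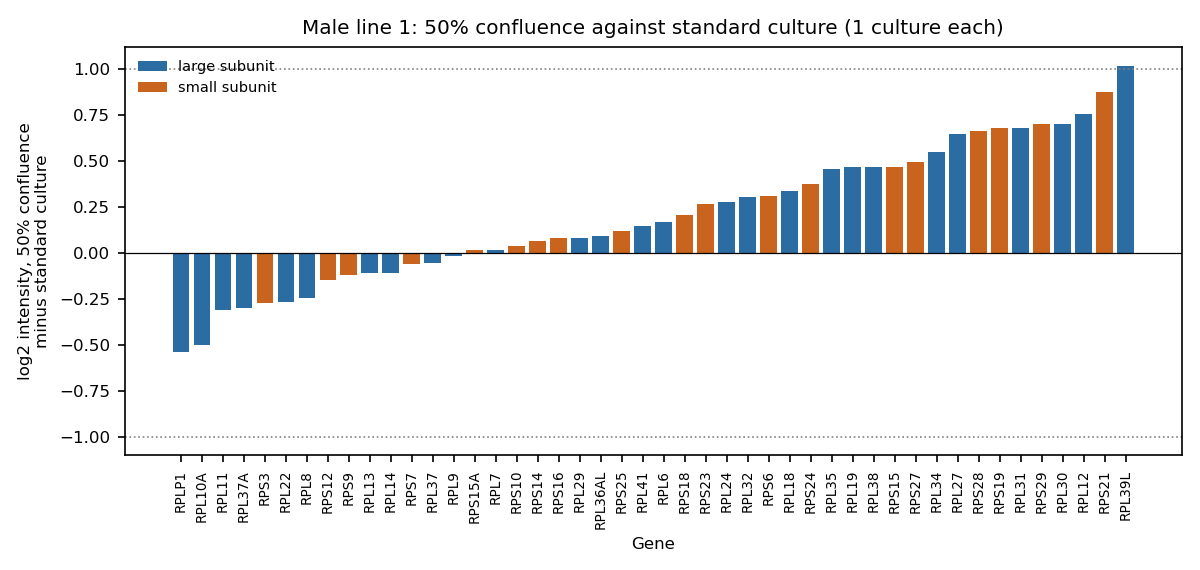
Bars give the log2 intensity at 50% confluence minus that of the standard culture (vertical axis) for 46 genes (horizontal axis), blue for the large and orange for the small subunit, with dotted lines at a 2-fold change. Most bars lie above 0, and RPL39L alone crosses the dotted line.

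The difference lay within the range of those between animals. Over the 45 genes the median difference between the cultures of male line 1 was 0.15 log2, and between pairs of different standard lines its absolute size ran from 0.01 to 0.93 with a median of 0.28. Of 45 such pairs, 10 had a smaller difference than the cultures of male line 1. The 18S control signal of 1508 to 2611 in the 50% confluence culture stood beside this result, and its part was not tested.

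Other genes of translation were described from fixed lists, which overlap. EEF1A1, an elongation factor, and EIF3H, an initiation factor, were also among the other genes of TOP messenger RNAs. For sex, age and the difference of age slopes, 0 genes passed (limma) among 28 initiation factors, 7 elongation and release factors, 23 ribosome assembly factors, 13 genes of RNA polymerases I and III and their factors, 15 other genes of TOP messenger RNAs, 15 genes of mTOR and MYC control and 14 mitochondrial ribosomal proteins. In male line 3 their median deviations were -0.13, -0.12, -0.05, -0.30, -0.16, -0.03 and -0.15 in that order, against -0.48 for cytosolic ribosomal proteins. In male line 5 they were -0.07, -0.21, 0.05, 0.25, -0.06, 0.13 and 0.20, against 0.38. In female line 4 they were -0.07, -0.10, 0.14, -0.11, -0.10, 0.21 and -0.18, against -0.33. Mitochondrial ribosomal proteins, which belong to the separate ribosome of that organelle, were above their mean in male line 5 for 13 of 14 genes and below it in male line 3 for 11 of 14. Of all probe sets above the floor in all arrays, 50.3% were below their mean in male line 5 and 46.8% in male line 3. The order of lines differed from that of the cytosolic genes, with the lowest median in female line 1 (-0.28) and the highest in male line 4 (0.27).

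Assembly factors build the ribosome in the nucleolus, and their lines fell in another order, lowest in female line 1 (-0.56) and highest in female line 5 (0.39). At 50% confluence 15 of 21 were lower, with a median of -0.33, 2 by over 2-fold (PWP2 with 389 against 155 and EMG1 with 480 against 223), whereas MAK16 was higher (220 against 517). EEF1A1, the elongation factor that brings aminoacyl-tRNA to the ribosome, read 17896, 23066, 37746, 16205 and 34007 in female lines and 36452, 18669, 17075, 36243 and 41208 in male lines. It was low in female line 4 and male line 3, as the ribosomal protein genes were, but also in female line 1 and male line 2. At 50% confluence it stood at 20852, 0.81 log2 below the standard culture, while TPT1 stood at -0.72 and EIF3H at -0.61.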

How the data were processed

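Deposited values were linear intensities in whole numbers. The authors' summary and scaling steps are not given in the sources used here. Low values end at 100, or at 90 in 2 arrays. The deposited scaling was kept, values under 100 were set to 100 and log2 was taken. Of 12558 probe sets that are not controls, tests used the 7333 that exceeded the floor in 5 or more of 11 arrays. Genes were named from the array's annotation, and 47 of 48 member symbols were found in a RefSeq bonobo gene table (NHGRI_mPanPan1-v2.0_pri), used for names alone. Human probes can bind bonobo transcripts less well.

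A limma model (version 3.58.1, R 4.3.3) held sex and age, and another added their interaction, each with a mean-dependent prior variance and two-sided tests. The sex and age terms were tried on simulated data, and the interaction was not. Simulated noise was independent between probe sets, whereas members share the shift of each line, so the trial does not bear on members as a set. Precision is limited by the number of arrays. Members, lists and tests were chosen with earlier results of these data known. Named genes were members of lowest p (5 per direction), largest harvest change (5 per direction) or extreme SD (6 per end), members of the stalk, 5S, paralog and X-linked lists, and up to 3 genes of each other list, and any other gene was picked after its values were seen. Alternatives were other scalings, floors, a pseudocount of 50, filters, variance models, covariates and probe set rules, and leaving out each line. Shifts per line, the counts of lowest and highest lines, and the members' median and count of positive estimates for sex by age, with their alternatives, were added after seeing the data.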

Additional observations from a re-analysis of the deposited data

Results flagged for a closer look

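In each sex the 5 lines were checked for a single line far from the rest, leaving out 3 groups of values wholly at the floor. Of 97 groups, 5 held one (5.15%), and chance alone gives about 1 in 20, a rate that does not hold for groups with lines at the floor. Male line 3 was the low one for RPL14 (4624), with a gap to the next male line of 0.72 of the male range, for RPL18 (3769), with 0.784 of it, and for RPL24 (6229), with 0.749. Female line 4 was the low one for RPS18 (16412), with 0.734 of the female range. Male line 4 was the high one for RPL39 (144), with a gap of 1.0 of the range because the other 4 male lines were at the floor.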

How the results depend on the processing

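Over 62 alternatives of the counts called by sex, age and sex by age, 0 members passed in each, and the lowest adjusted p of a member was 0.554 (limma, sex by age without male line 5). Medians by sex ran from -0.12 to 0.13 and by age from -0.04 to 0.11, so neither has a settled direction. Quantile normalization moved most: the median SD became 0.25 (0.31 as deposited), the range of large minus small 0.0767, the shift of male line 5 0.0900, and the counts of genes lowest in male line 3 and highest in male line 5 became 18 and 7. Male line 4 then had the highest shift (0.199). The cause of these moves was not tested. The count of members over 2-fold by harvest was 0 with quantile normalization, a floor of 200 or a pseudocount of 50, and 2 with every probe set counted or averaged per gene. No paired test was possible. Female and male lines came from different animals, and male line 1 alone had cultures in both harvest states, without replicates. Signal over background limits RPL39, RPL3L and RPL39L.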
